A study of Mus musculus with 27 samples.

Results

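The genes described here are 34 genes of liver endothelial cells, the cells that line the sinusoids and vessels of the liver, out of 43346 genes in a table of hepatocyte RNA-seq from inbred mice. They were chosen as known genes of these cells, and each was taken as the row whose Ensembl ID carries that symbol in GENCODE M21; all 34 symbols had exactly 1 row. The study also recorded histone modifications and DNA methylation of these mice, and asks how genetic differences go with differences in chromatin and RNA. The RNA part holds 27 libraries, 3 of each of 9 inbred strains: the laboratory strains A/J, C57BL/6J, 129S1/SvImJ, NZO/HlLtJ, DBA/2J and NOD/ShiLtJ, and the wild-derived strains WSB/EiJ, CAST/EiJ and PWK/PhJ. All mice were female and 12 weeks old, no treatment is given, and strain was the only difference between groups. The labels call the cells hepatocytes and the libraries biological replicates; how the cells were separated from liver is not given in the sources used here, and where libraries did not come from separate mice the p-values measure technical spread only. The endothelial genes were a minor part of the RNA: the 34 genes together held 0.0196% to 0.154% of a library's counts (median 0.0385%), while the hepatocyte gene Alb averaged 132037 CPM (read counts scaled to the size of the library).

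Liver sinusoidal endothelial cells form a fenestrated, filter-like wall between blood and hepatocytes. They are known for scavenging waste molecules from blood through stabilins, lectins and Fc receptors, for signals that pattern and instruct hepatocytes (WNT ligands, R-spondin 3 and BMP2), and for making coagulation factor VIII. Their growth and survival depend on receptors for vascular endothelial growth factor (VEGF) and for angiopoietins, and ETS-family transcription factors are known regulators of many endothelial promoters.

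The sequences upstream of 4 genes are shown because these genes form 2 pairs of related receptors whose ratio set strains apart: the stabilin genes Stab1 and Stab2, and the angiopoietin receptor Tek with its relative Tie1. Each is the 250 bases before the RefSeq start on the gene's own strand, 5′ to 3′, of the reference mouse (build GRCm38.p6; chr14:31168642-31168891, minus strand, for Stab1; chr10:87007943-87008192, minus strand, for Stab2; chr4:94739039-94739288, plus strand, for Tek; chr4:118489850-118490099, minus strand, for Tie1). In GENCODE M21 the genes Stab2 and Tie1 start farther upstream than in RefSeq, at 87008025 and 118490061. Parts of these 2 windows therefore lie inside the GENCODE genes, and so does the marked match of Stab2. Capitals mark the ETS motif AGGAAG read on either strand.
Stab1: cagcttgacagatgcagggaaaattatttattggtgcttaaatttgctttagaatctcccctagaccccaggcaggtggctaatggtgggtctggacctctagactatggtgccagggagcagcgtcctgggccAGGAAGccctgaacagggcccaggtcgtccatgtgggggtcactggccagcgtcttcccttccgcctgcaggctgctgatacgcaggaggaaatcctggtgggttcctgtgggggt
Stab2: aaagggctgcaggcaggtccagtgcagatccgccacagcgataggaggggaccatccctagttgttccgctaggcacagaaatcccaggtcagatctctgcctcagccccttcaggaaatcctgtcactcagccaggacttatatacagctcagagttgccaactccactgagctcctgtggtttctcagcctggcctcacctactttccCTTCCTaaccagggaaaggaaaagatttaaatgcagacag
Tek: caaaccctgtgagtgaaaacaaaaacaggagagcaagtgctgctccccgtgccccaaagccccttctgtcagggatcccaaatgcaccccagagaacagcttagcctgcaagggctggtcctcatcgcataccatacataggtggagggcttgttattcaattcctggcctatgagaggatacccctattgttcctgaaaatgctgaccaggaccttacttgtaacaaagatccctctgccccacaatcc
Tie1: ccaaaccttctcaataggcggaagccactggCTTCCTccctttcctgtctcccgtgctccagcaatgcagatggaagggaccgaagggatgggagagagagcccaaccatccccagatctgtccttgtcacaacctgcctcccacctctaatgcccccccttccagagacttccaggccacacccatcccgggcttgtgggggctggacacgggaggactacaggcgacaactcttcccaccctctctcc
The window held 1 match in Stab1, 1 in Stab2 and 1 in Tie1, and no match in Tek. Over the genes studied, 11 of the 20 with an entry in the promoter table held AGGAAG within these windows, against 32.3% of all 27025 genes in the table, counted in the same way, and 29.5% of its 32851 promoters of the same length. Of the other motifs searched on either strand, the KLF motif CCACCC was in 8 of the 20 (30.6% of all genes) and the SOX motif ACAATG in 1 (12.2%), while the GATA motif AGATAA (11.4%) and the longer ETS motif CCGGAAGT (3.23%) were in none of these windows. These are letters found or not found in a reference window and carry no measurement of binding.

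Library totals ran from 17015932 to 35078483 counts. After a filter on low counts, 14482 genes were tested, 33 of the 34 among them. Wnt9b, a WNT ligand of central vein endothelium, did not pass, with at most 11 counts in any library. Per kilobase of the longest transcript, the mean level over all libraries was highest for the water channel Aqp1 at 17.8 CPM per kb and the lectin Clec4g at 14.5. It was lowest for the clotting protein gene Vwf at 0.0703 and for Wnt9b at 0.0220. Rspo3 at 0.193 and Emcn at 0.317 were also low. Exons of 10 of the genes overlap other annotated genes (Stab1, Stab2, Clec4g, Fcgr2b, Gpr182, Rspo3, Eng, Egfl7, Ramp2 and Maf), and reads of such pairs on opposite strands cannot be told apart with this library kit.

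The endothelial genes rose and fell together from library to library. A shared endothelial level was set for each library as the mean log2 CPM of 16 core genes, centred on the mean of all libraries. It was highest in PWK/PhJ, at 1.17 ± 0.90 (log2, mean ± SD, n = 3), followed by C57BL/6J at 0.58 ± 0.40 and A/J at 0.29 ± 0.46. WSB/EiJ stood at 0.10 ± 0.22 and NOD/ShiLtJ at -0.04 ± 0.53. CAST/EiJ at -0.29 ± 0.80, 129S1/SvImJ at -0.42 ± 0.55 and DBA/2J at -0.43 ± 0.77 came lower, and NZO/HlLtJ was lowest at -0.95 ± 0.40. In bulk samples such as these, fewer endothelial cells and less RNA per endothelial cell cannot be told apart.

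Single libraries set much of this order. PWK/PhJ replicate 1 stood at 2.20, which is 4.61 times the mean library, while replicates 2 and 3 of that strain stood at 0.57 and 0.72, below the C57BL/6J library at 1.002. The C57BL/6J libraries stood at 0.22, 0.52 and 1.002. NZO/HlLtJ libraries stood at -1.28, -1.06 and -0.51. Within a strain, DBA/2J replicate 4 at -1.31 lay far under its partners at 0.02 and -0.000670. CAST/EiJ replicate 1 at -1.22 lay as far under its partners at 0.15 and 0.18. Without the library farthest from its partners, the strain mean would be 0.65 in PWK/PhJ, 0.01 in DBA/2J and 0.17 in CAST/EiJ. Of 36 pairs of strains, 12 had libraries whose ranges did not overlap. NZO/HlLtJ did not overlap C57BL/6J, A/J, NOD/ShiLtJ, WSB/EiJ or PWK/PhJ. All neighbours in the order of strain means overlapped.

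**Figure D1:**
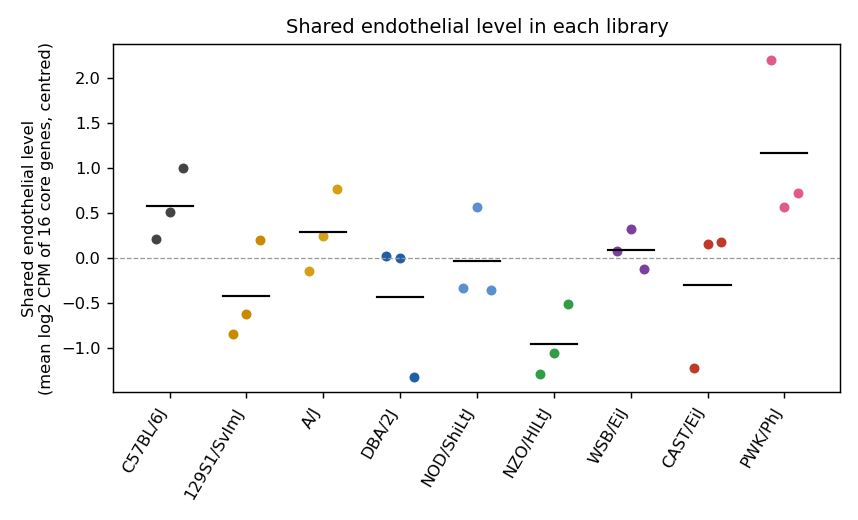
Shared endothelial level of each library (y axis, mean log2 CPM of the core genes, centred at 0) by strain (x axis); points are libraries and bars are strain means. PWK/PhJ replicate 1 stands alone at 2.20, and the NZO/HlLtJ libraries lie between -1.28 and -0.51.

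The strains at the ends of this order were counted gene by gene; 16 of the genes set that order themselves. PWK/PhJ had the highest mean CPM for 34 of 34 genes, and for 18 without its replicate 1, which was the highest of all libraries for 33 genes. NZO/HlLtJ had the lowest mean for 28 of 34. In an edgeR quasi-likelihood fit over all genes, each strain was compared with the mean of the other 8, and a gene was called where the adjusted p was under 0.05. PWK/PhJ was higher for 30 of 33 endothelial genes, against 19.4% of all genes tested, with a median log2 difference of 1.49 (all genes 0.00). Without PWK/PhJ replicate 1 it was higher for 13, with a median of 0.77. NZO/HlLtJ was lower for 25 of 33, against 12.9% of all genes, with a median of -1.19 (all genes 0.02). That count fell to 5 without its replicate 1 and to 3 without its replicate 2, with medians of -1.01 and -1.14.

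In the other strains few single genes were called, though the median endothelial difference was not always near 0. It was 0.64 in C57BL/6J, 0.23 in A/J, 0.04 in WSB/EiJ and -0.06 in NOD/ShiLtJ on the log2 scale. CAST/EiJ stood at -0.23, 129S1/SvImJ at -0.41 and DBA/2J at -0.47, while medians of all genes in these strains lay between -0.01 and 0.02. Over all genes tested, the shares called higher and lower were 11.6% and 6.5% in C57BL/6J, 10.5% and 7.86% in 129S1/SvImJ, 15.9% and 11.6% in A/J, 9.5% and 3.78% in DBA/2J, 9.2% and 5.72% in NOD/ShiLtJ, 15.5% and 9.25% in WSB/EiJ and 20.1% and 17.8% in CAST/EiJ. Against these, at most 2 of 33 endothelial genes were called in any of these strains. Without PWK/PhJ replicate 1, 7 were called higher in C57BL/6J, against 1 with all libraries. Cdh5, the adhesion molecule VE-cadherin, was higher in C57BL/6J, at 0.90 ± 0.28 (SE, adjusted p = 0.025) on the log2 scale. The call was lost without C57BL/6J replicate 2, at 0.96 (adjusted p = 0.071), or replicate 4, at 0.77 (adjusted p = 0.19). Egfl7, a secreted matrix protein, was higher in A/J, at 0.90 ± 0.30 (SE, adjusted p = 0.027). Leaving out A/J replicate 2 gave 0.88 (adjusted p = 0.087) and replicate 3 gave 0.67 (adjusted p = 0.25). Stab2 was higher in DBA/2J, at 0.96 ± 0.31 (SE, adjusted p = 0.038). It missed the threshold without DBA/2J replicate 2, at 0.62 (adjusted p = 0.42), or replicate 3, at 0.92 (adjusted p = 0.17). Lyve1 was lower in WSB/EiJ, at -3.05 ± 0.65 (SE, adjusted p = 0.0011), and this call held with every library left out in turn. Dnase1l3 was lower in CAST/EiJ, at -1.05 ± 0.36 (SE, adjusted p = 0.023), but at -0.72 (adjusted p = 0.19) without CAST/EiJ replicate 1. Lyve1 was also called higher in NOD/ShiLtJ, Maf lower in NOD/ShiLtJ and Clec4g lower in 129S1/SvImJ, each a call that leaving out single libraries ended.

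Marker genes of other liver cells moved with these levels in part. The summed level of 18 Kupffer cell markers ran from 328 to 788 CPM over the PWK/PhJ libraries, 410.5 to 616 in C57BL/6J and 183 to 229 in NZO/HlLtJ. Their order was not that of the endothelial level: the mean sum was highest in A/J, at 559.8 ± 134 CPM (SD, n = 3), then C57BL/6J at 498 ± 106, WSB/EiJ at 496 ± 131 and PWK/PhJ at 492 ± 256. The other strains had Kupffer means of 304 ± 139 in DBA/2J, 267 ± 11.4 in NOD/ShiLtJ, 252 ± 27.01 in 129S1/SvImJ, 223 ± 18.5 in CAST/EiJ and 212 ± 24.7 in NZO/HlLtJ. The 18 stellate cell and matrix markers summed to 159 to 239.7 CPM in PWK/PhJ and 41.1 to 71.9 in NZO/HlLtJ. In PWK/PhJ, 9 of 18 tested Kupffer genes were higher and 2 lower, and 7 and 1 of 17 stellate genes, against 19.4% and 14.8% of all genes. In NZO/HlLtJ, 2 Kupffer genes were higher and 4 lower, and 0 and 8 stellate genes, against 14.8% and 12.9%. Platelet markers summed to 5.87 to 7.87 CPM in PWK/PhJ and 1.10 to 2.08 in NZO/HlLtJ. Lymphocyte markers summed to 4.40 to 12.8 and 0.994 to 2.76 CPM, with Ptprc, the pan-leukocyte antigen CD45, at 5.99 ± 3.68 CPM and 1.51 ± 0.708 CPM, and 10 of those 12 genes were too low to test. Cholangiocyte markers summed to 23.5 to 25.6 CPM in PWK/PhJ and 21.4 to 25.1 in NZO/HlLtJ, ranges that overlapped, with the defining keratin Krt19 at a mean of 0.0891 CPM. The 12 hepatocyte markers summed to 155805 to 213654 CPM in PWK/PhJ and 128577 to 135199 in NZO/HlLtJ. Of the libraries that stood apart in the shared level, PWK/PhJ replicate 1 and DBA/2J replicate 4 did so in several of these lists. CAST/EiJ replicate 1 had the lowest stellate sum of all 27 libraries (37.4, 93.7 and 94.0 CPM in replicates 1, 4 and 5). Its Kupffer and lymphocyte sums lay between those of its partners. PWK/PhJ replicate 1 had the highest sum of its strain for Kupffer (788, 328 and 361 CPM in replicates 1 to 3), stellate (239.7, 159 and 173) and lymphocyte markers (12.8, 4.40 and 5.14). Its hepatocyte marker sum was also the highest of the strain (213654, 163009 and 155805 CPM). DBA/2J replicate 4 had the lowest of its strain for Kupffer (344, 418 and 149 CPM in replicates 2 to 4), stellate (147, 129 and 66.4) and lymphocyte markers (5.36, 5.82 and 0.925). Its hepatocyte marker sum was also the lowest of the strain (164284, 231335 and 136040 CPM). The part of the cell mixture in the endothelial differences was not tested.

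To see which genes only followed the shared level, its slope was fitted within strains, so that a slope of 1 means that a gene's log2 level rose as much as the shared level among libraries of a strain. For a core gene, the shared level was computed without that gene. Of 33 endothelial genes, 27 had a slope between 0.8 and 1.2. The mean slope of the core genes is near 1 by construction, since they set the level, so the other genes carry the information: 12 of 17 of them were in this range, against 4.09% of all genes. Of the core genes, 15 of 16 were. The median slope of the genes outside the core was 0.96, against -0.00373 over all genes. Kdr, the main VEGF receptor, had a slope of 1.05 ± 0.07 (SE), Flt4, its lymphatic relative, 1.09 ± 0.08, and the clotting factor gene F8 0.90 ± 0.09. Tie1 rose less, with a slope of 0.69 ± 0.06. The lowest slopes were those of Vwf at 0.47 ± 0.20 and the transcription factor genes Maf at 0.34 ± 0.10 and Gata4 at 0.16 ± 0.11. The R-spondin gene Rspo3 had a slope of 0.75 ± 0.31. Gata4 averaged 10.6 ± 0.669 CPM (SD, n = 3) in NZO/HlLtJ, where the shared level was lowest, 9.22 ± 1.53 CPM (SD, n = 3) in C57BL/6J and 11.4 ± 3.54 CPM (SD, n = 3) in PWK/PhJ, where the level was highest; without PWK/PhJ replicate 1 the PWK/PhJ mean was 9.40 CPM. The ranges of these strains overlapped, and the strain difference of Gata4 was not called (adjusted p = 0.13).

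**Figure D2:**
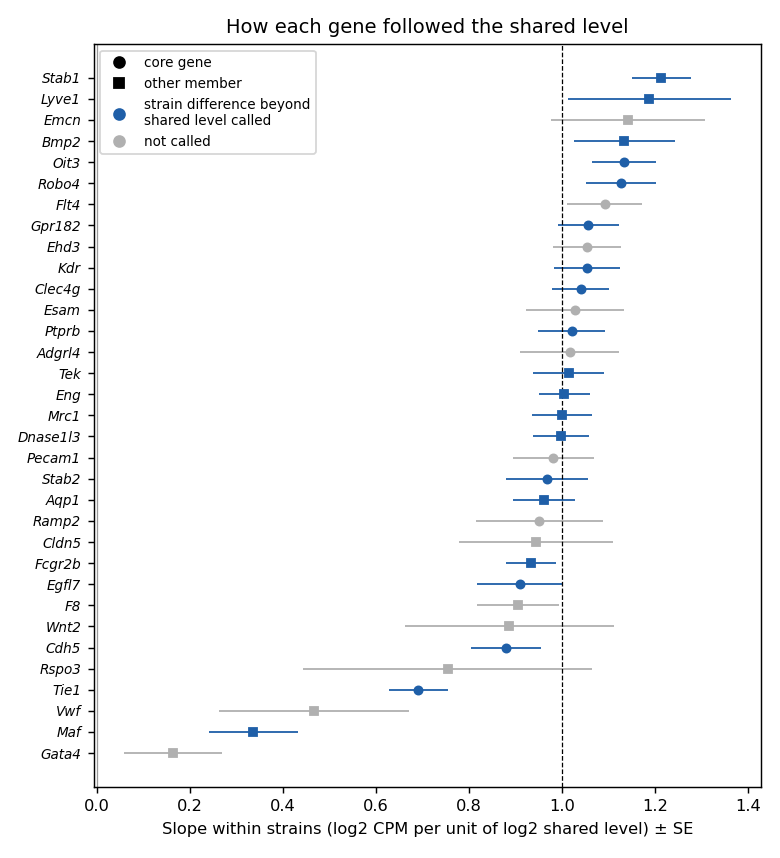
Slope of each tested gene on the shared endothelial level within strains (x axis, log2 CPM per unit of log2 shared level, ± SE), genes in order of slope (y axis); circles are core genes, squares are other genes, and blue marks a called strain difference beyond the shared level. Most genes sit near the dashed line at 1, and Gata4 (0.16), Maf (0.34) and Vwf (0.47) sit lowest.

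Strain differences beyond the shared level were then tested with that level as a covariate, and a gene is said to depart where this test had an adjusted p under 0.05. Without the covariate, 30 of 33 endothelial genes (90.9%) differed between strains, against 74.2% of all genes. With it, 20 of 33 (60.6%) departed, against 72.1% of all genes, so the share among endothelial genes went from above that of all genes to below it. The 19 genes called in both tests, the 11 called only without the covariate and Tie1, called only with it, leave Gata4 and Vwf, called in neither. The 13 genes that did not depart were Ramp2, Flt4, F8, Emcn, Ehd3, Gata4, Rspo3, Cldn5, Pecam1, Adgrl4, Esam, Wnt2 and Vwf. With the shared level as an offset of slope 1 in place of a fitted slope, 5 departed, against 83.9% of all genes: Stab2, Lyve1, Tie1, Egfl7 and, not called before, Gata4. With 1 library left out, some genes that had not departed did: Flt4 without 129S1/SvImJ replicate 2 or CAST/EiJ replicates 4 or 5 (adjusted p = 0.013 to 0.037), F8 without C57BL/6J replicate 1, 129S1/SvImJ replicate 3, DBA/2J replicate 4 or CAST/EiJ replicate 1 (adjusted p = 0.021 to 0.049), and Ramp2 without DBA/2J replicate 3, NOD/ShiLtJ replicate 2 or NZO/HlLtJ replicate 3 (adjusted p = 0.045 to 0.049). Ehd3 did so without A/J replicate 2 or PWK/PhJ replicate 2 (adjusted p = 0.034 to 0.047), and Cldn5 without 129S1/SvImJ replicate 2 (adjusted p = 0.040). With the levels of Kupffer and stellate markers as further covariates, 19 departed; Kdr, Tek, Oit3 and Robo4 no longer did, and Ehd3, Emcn and Adgrl4 then did. Single-strain differences given below are log2 values beyond the shared level, unless said otherwise, and their calls held with every library left out in turn, except where a library is named. In the offset fit, the calls of Stab2 in DBA/2J, Lyve1 in NOD/ShiLtJ, WSB/EiJ, CAST/EiJ and PWK/PhJ, Tek in PWK/PhJ, Tie1 in NZO/HlLtJ and PWK/PhJ and Egfl7 in DBA/2J were kept, and the others were lost. Kupffer and stellate covariates also ended the single-strain calls of Kdr, Ptprb, Eng, Oit3, Aqp1 and Ehd3, those of Tie1 in 129S1/SvImJ and DBA/2J, Maf in CAST/EiJ and Robo4 in A/J, and those named below. Not all of these values shrank. Kdr (-0.47) and Aqp1 (-0.43) in DBA/2J, Oit3 in A/J (-0.43) and PWK/PhJ (0.39) and Maf (0.48) were then farther from 0. Tie1 in DBA/2J was at 0.30. Nearer 0 were Ptprb (0.22) and Aqp1 (0.31) in WSB/EiJ, and Eng in A/J (-0.23), CAST/EiJ (0.16) and PWK/PhJ (0.21). So were Tie1 in 129S1/SvImJ (-0.32), and Robo4 (-0.29) and Ehd3 (0.0043) in A/J.

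Calls by single strain beyond the shared level were few. With the shares of all genes called higher and lower in brackets, the endothelial genes called were 1 higher and 1 lower in C57BL/6J (8.07% and 4.85%), 2 higher and 2 lower in 129S1/SvImJ (8.82% and 6.36%) and 2 higher and 6 lower in A/J (15.3% and 11.6%). The counts were 4 higher and 2 lower in DBA/2J (13.9% and 7.8%), 2 higher and 1 lower in NOD/ShiLtJ (11.5% and 7.16%) and 1 higher and 1 lower in NZO/HlLtJ (6.95% and 4.55%). They were 4 higher and 2 lower in WSB/EiJ (17.9% and 11.2%), 5 higher and 3 lower in CAST/EiJ (20.5% and 18%) and 5 higher and 2 lower in PWK/PhJ (16.3% and 15.5%). Of these, the 6 genes lower in A/J were a larger share of the 33 than of all genes, and every other count was a smaller share.

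Lyve1, Stab2 and Stab1, 3 scavenger receptors, had the smallest adjusted p for a departure. Lyve1, a hyaluronan receptor of sinusoidal and lymphatic endothelium, stood at 2.63, 2.71 and 4.501 CPM in C57BL/6J, 0.403, 0.830 and 2.05 in 129S1/SvImJ, 0.685, 1.54 and 1.70 in A/J, 0.802, 2.06 and 0.319 in DBA/2J, 2.79, 6.65 and 5.68 in NOD/ShiLtJ, 1.07, 1.67 and 2.08 in NZO/HlLtJ, 0.337, 0.363 and 0.276 in WSB/EiJ, 0.828, 5.23 and 4.74 in CAST/EiJ and 34.98, 12.5 and 21.5 in PWK/PhJ. All PWK/PhJ libraries lay above all others, and the WSB/EiJ libraries, with 6 to 9 counts each, lay below every library but DBA/2J replicate 4. Lyve1 departed (adjusted p = 1.6e-08): beyond the shared level it was higher in PWK/PhJ by 2.31 ± 0.29 (SE, adjusted p = 1.3e-06) on the log2 scale, or 4.97-fold. Without PWK/PhJ replicate 1 this was 2.33 ± 0.28 (SE, adjusted p = 1.3e-06). In NOD/ShiLtJ it was higher by 1.496 ± 0.23 (SE, adjusted p = 3.7e-05). WSB/EiJ was lower, at -3.09 ± 0.39 (SE, adjusted p = 1.9e-06), or 8.52-fold. The same test gave -1.17 ± 0.31 (SE, adjusted p = 0.0072) in A/J, which became -1.09 (adjusted p = 0.055) without A/J replicate 3, and 1.01 ± 0.24 (SE, adjusted p = 0.0022) in CAST/EiJ, which became 0.79 (adjusted p = 0.068) without CAST/EiJ replicate 4. With Kupffer and stellate marker levels as further covariates, the differences were 2.90 (adjusted p = 8.6e-07) in PWK/PhJ and -3.41 (adjusted p = 4.9e-07) in WSB/EiJ. They were -2.13 (adjusted p = 0.0039) in A/J and 2.19 (adjusted p = 0.0020) in CAST/EiJ, each further from 0 than without those covariates.

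Stab2, a stabilin that clears hyaluronan, stood at 19.2, 29.1 and 44.2 CPM in C57BL/6J, 18.8, 18.3 and 32.0 in 129S1/SvImJ, 21.3, 37.6 and 37.7 in A/J, 75.4, 56.2 and 27.1 in DBA/2J, 24.3, 35.9 and 26.9 in NOD/ShiLtJ, 13.2, 13.3 and 23.0 in NZO/HlLtJ, 20.5, 21.6 and 12.8 in WSB/EiJ, 14.69, 32.6 and 30.1 in CAST/EiJ and 110.1, 25.8 and 35.05 in PWK/PhJ. DBA/2J replicates 2 and 3 were exceeded only by PWK/PhJ replicate 1, and the WSB/EiJ libraries were low and overlapped those of NZO/HlLtJ. Stab2 departed (adjusted p = 2.5e-07) and was higher in DBA/2J by 1.48 ± 0.13 (SE, adjusted p = 1.0e-08), or 2.80-fold, and lower in WSB/EiJ, at -0.85 ± 0.15 (SE, adjusted p = 1.1e-04). In C57BL/6J it was at -0.57 ± 0.15 (SE, adjusted p = 0.015), a call lost without C57BL/6J replicate 1, at -0.43 (adjusted p = 0.14), and with Kupffer and stellate levels, at -0.72 (adjusted p = 0.052). In DBA/2J the value with those levels was 1.66 (adjusted p = 7.4e-05). Stab1, the related stabilin, which macrophages are also known to make, stood at 21.7, 24.9 and 42.2 CPM in C57BL/6J, 14.0, 14.8 and 30.6 in 129S1/SvImJ, 7.76, 15.0 and 26.3 in A/J, 17.8, 17.02 and 5.96 in DBA/2J, 13.8, 27.1 and 12.7 in NOD/ShiLtJ, 6.09, 5.90 and 12.5 in NZO/HlLtJ, 29.8, 32.3 and 24.2 in WSB/EiJ, 5.88, 18.3 and 16.3 in CAST/EiJ and 76.3, 20.8 and 22.4 in PWK/PhJ. Its WSB/EiJ libraries were among the higher ones, although WSB/EiJ was the strain lowest in Stab2 beyond the shared level. Stab1 (adjusted p = 4.3e-07) was higher in WSB/EiJ by 0.68 ± 0.09 (SE, adjusted p = 4.5e-06) and in 129S1/SvImJ by 0.68 ± 0.10 (SE, adjusted p = 2.3e-05). It was lower in A/J, at -0.64 ± 0.11 (SE, adjusted p = 9.6e-05), a call lost with Kupffer and stellate levels, at -0.54 (adjusted p = 0.058), and in PWK/PhJ, at -0.55 ± 0.13 (SE, adjusted p = 0.0022). Without PWK/PhJ replicate 1 the PWK/PhJ value was -0.54 ± 0.14 (SE, adjusted p = 0.0044).

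The ratio of the stabilins compares 2 genes read in the same library, but it is not free of the shared level. Stab1 had a slope of 1.21 ± 0.06 (SE) and Stab2 0.97 ± 0.09, so the ratio can rise with that level. How much of the ratio differences followed the level was not tested. Counts of Stab1 per count of Stab2 were 0.236, 0.303 and 0.220 in the DBA/2J libraries and 1.45, 1.496 and 1.90 in WSB/EiJ. They were 1.13, 0.857 and 0.954 in C57BL/6J, 0.744, 0.808 and 0.956 in 129S1/SvImJ, 0.364, 0.399 and 0.698 in A/J, 0.568, 0.754 and 0.473 in NOD/ShiLtJ, 0.461, 0.443 and 0.545 in NZO/HlLtJ, 0.400, 0.561 and 0.543 in CAST/EiJ and 0.693, 0.806 and 0.640 in PWK/PhJ. All DBA/2J libraries lay below, and all WSB/EiJ libraries above, every library of the other strains. PWK/PhJ replicate 1, with the highest shared level, had a ratio between those of its partners.

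The other uptake receptors departed by less. Clec4g, a lectin of sinusoidal cells, stood at 24.7, 26.3 and 39.2 CPM in C57BL/6J, 6.27, 8.36 and 14.1 in 129S1/SvImJ, 16.8, 24.0 and 36.4 in A/J, 18.5, 18.9 and 7.11 in DBA/2J, 15.2, 33.8 and 15.0 in NOD/ShiLtJ, 7.29, 10.8 and 11.8 in NZO/HlLtJ, 20.5, 19.6 and 17.4 in WSB/EiJ, 6.97, 17.005 and 21.8 in CAST/EiJ and 74.9, 24.6 and 25.7 in PWK/PhJ. The 129S1/SvImJ libraries were low and overlapped those of NZO/HlLtJ. Clec4g departed (adjusted p = 3.4e-04) and was lower in 129S1/SvImJ, at -0.64 ± 0.10 (SE, adjusted p = 1.2e-04). Fcgr2b, the inhibitory Fc receptor that takes up immune complexes, stood at 23.4, 33.0 and 37.4 CPM in C57BL/6J, 12.9, 15.8 and 25.8 in 129S1/SvImJ, 15.8, 21.1 and 32.1 in A/J, 27.9, 28.6 and 14.1 in DBA/2J, 17.5, 33.95 and 20.9 in NOD/ShiLtJ, 8.996, 11.3 and 15.2 in NZO/HlLtJ, 21.5, 24.5 and 21.1 in WSB/EiJ, 8.78, 22.5 and 23.4 in CAST/EiJ and 105, 29.8 and 41.4 in PWK/PhJ. The NZO/HlLtJ libraries lay below all those of C57BL/6J, A/J, NOD/ShiLtJ, WSB/EiJ and PWK/PhJ, and PWK/PhJ replicates 1 and 3 lay above every other library. It was higher in DBA/2J beyond the shared level (adjusted p = 6.5e-04), by 0.46 ± 0.08 (SE, adjusted p = 3.2e-04). In A/J Fcgr2b was lower, at -0.32 ± 0.09 (SE, adjusted p = 0.0089), a call lost without A/J replicate 1, at -0.28 (adjusted p = 0.069), and with Kupffer and stellate levels, at -0.24 (adjusted p = 0.33). Mrc1, the mannose receptor, which macrophages are also known to make, departed (adjusted p = 0.0091) with a higher level in CAST/EiJ, by 0.38 ± 0.10 (SE, adjusted p = 0.0034). With Kupffer and stellate levels the CAST/EiJ value was 0.60 (adjusted p = 0.015). Mrc1 was lower in NZO/HlLtJ, at -0.41 ± 0.12 (SE, adjusted p = 0.034), which became -0.42 (adjusted p = 0.082) without NZO/HlLtJ replicate 2 and -0.28 (adjusted p = 0.28) without replicate 3, and was also lost without CAST/EiJ replicate 1 (adjusted p = 0.065) or PWK/PhJ replicate 2 (adjusted p = 0.062). Its strain means ran from 7.06 ± 1.02 CPM (SD, n = 3) in NZO/HlLtJ to 45.9 ± 32.1 CPM (SD, n = 3) in PWK/PhJ, where the mean without replicate 1 was 27.3 CPM, below 28.9 ± 6.14 CPM (SD, n = 3) in C57BL/6J.

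Among growth factor receptors, the angiopoietin pair separated. Tek, the angiopoietin receptor TIE2, stood at 4.96, 7.10 and 8.50 CPM in C57BL/6J, 2.76, 2.49 and 5.31 in 129S1/SvImJ, 4.75, 4.68 and 8.10 in A/J, 5.07, 3.41 and 1.43 in DBA/2J, 3.57, 7.66 and 4.42 in NOD/ShiLtJ, 1.43, 1.85 and 2.47 in NZO/HlLtJ, 5.44, 6.57 and 4.14 in WSB/EiJ, 2.33, 5.71 and 6.55 in CAST/EiJ and 32.3, 9.69 and 13.9 in PWK/PhJ. Tie1, its partner receptor, stood at 5.88, 7.51 and 10.5 CPM in C57BL/6J, 3.66, 3.75 and 6.39 in 129S1/SvImJ, 6.44, 8.14 and 11.5 in A/J, 8.66, 7.33 and 4.37 in DBA/2J, 6.04, 8.63 and 5.78 in NOD/ShiLtJ, 5.94, 6.50 and 7.12 in NZO/HlLtJ, 6.53, 7.82 and 6.03 in WSB/EiJ, 4.08, 7.43 and 5.72 in CAST/EiJ and 16.3, 6.12 and 7.27 in PWK/PhJ. Tek in NZO/HlLtJ was low in all libraries, while Tie1 in NZO/HlLtJ lay amid the other strains; in PWK/PhJ replicates 2 and 3, Tek was above every library of another strain and Tie1 was not. The strain difference of Tie1 as such was not called (adjusted p = 0.13). Relative to the shared level (adjusted p = 2.1e-04), Tie1 was higher in NZO/HlLtJ by 0.73 ± 0.12 (SE, adjusted p = 2.0e-04), and by 0.72 (adjusted p = 4.5e-04) with Kupffer and stellate levels. It was lower in PWK/PhJ, at -0.47 ± 0.14 (SE, adjusted p = 0.011), which became -0.37 (adjusted p = 0.12) without PWK/PhJ replicate 2 and -0.47 (adjusted p = 0.05042) without replicate 3, and -0.45 (adjusted p = 0.074) with Kupffer and stellate levels. In 129S1/SvImJ Tie1 was lower, at -0.36 ± 0.11 (SE, adjusted p = 0.027), a call lost without any 1 of its libraries, at -0.37 (adjusted p = 0.074), -0.31 (adjusted p = 0.15) and -0.41 (adjusted p = 0.075) without replicates 1, 2 and 3. In DBA/2J it was higher by 0.30 ± 0.11 (SE, adjusted p = 0.044), a call lost in 15 of the 27 fits that left out a library. Tek (adjusted p = 0.0052) was higher in PWK/PhJ by 0.66 ± 0.15 (SE, adjusted p = 0.0012), and by 0.68 ± 0.15 (SE, adjusted p = 0.0017) without PWK/PhJ replicate 1. The overall departure of Tek missed the threshold with Kupffer and stellate levels (adjusted p = 0.066), while its PWK/PhJ value in that fit was 0.70 (adjusted p = 0.0089). Counts of Tek per count of Tie1 were 0.240, 0.284 and 0.347 in NZO/HlLtJ, 0.585, 0.466 and 0.328 in DBA/2J and 1.98, 1.58 and 1.91 in PWK/PhJ. Every PWK/PhJ ratio lay above that of any other library, and NZO/HlLtJ lay low with DBA/2J replicate 4. Tek had a slope of 1.01 ± 0.08 (SE) on the shared level and Tie1 0.69 ± 0.06, so this ratio can rise with that level. The mean level was lowest in NZO/HlLtJ and highest in PWK/PhJ, and it was -1.31 in DBA/2J replicate 4. What share of these ratio differences followed the level was not tested.

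The VEGF receptors kept together. Kdr stood at 24.5, 26.9 and 42.7 CPM in C57BL/6J, 14.701, 16.4 and 24.0 in 129S1/SvImJ, 20.9, 22.1 and 44.4 in A/J, 21.3, 14.9 and 5.77 in DBA/2J, 17.3, 32.3 and 17.5 in NOD/ShiLtJ, 8.66, 8.78 and 13.4 in NZO/HlLtJ, 18.4, 26.4 and 18.7 in WSB/EiJ, 8.36, 23.3 and 24.5 in CAST/EiJ and 119, 38.6 and 37.8 in PWK/PhJ. PWK/PhJ replicate 1 was far above the rest, and DBA/2J replicate 4 was lowest. Counts of Kdr per count of Flt4 lay between 1.60 and 2.91 in all 27 libraries, and no strain lay apart from all others. Flt4 did not depart (adjusted p = 0.069). Kdr passed narrowly (adjusted p = 0.048), and that call was lost in 23 of the 27 fits that left out a library, with an adjusted p of up to 0.14. It was kept without 129S1/SvImJ replicate 3, A/J replicate 2, A/J replicate 3 or DBA/2J replicate 2. In DBA/2J Kdr was lower, at -0.37 ± 0.12 (SE, adjusted p = 0.028), which became -0.26 (adjusted p = 0.26) without DBA/2J replicate 3 and -0.29 (adjusted p = 0.14) without replicate 4. Ptprb, a phosphatase that acts on TEK and VE-cadherin, stood at 25.3, 33.2 and 48.0 CPM in C57BL/6J, 13.6, 18.2 and 31.9 in 129S1/SvImJ, 20.4, 22.6 and 43.0 in A/J, 20.6, 16.3 and 9.05 in DBA/2J, 20.4, 35.7 and 19.7 in NOD/ShiLtJ, 7.72, 8.50 and 15.97 in NZO/HlLtJ, 25.2, 38.4 and 25.6 in WSB/EiJ, 11.6, 29.1 and 23.6 in CAST/EiJ and 101, 25.5 and 34.4 in PWK/PhJ. It followed the shared level with a slope of 1.02 ± 0.07, and departed (adjusted p = 0.014) with 1 single-strain call, in WSB/EiJ, at 0.31 ± 0.11 (SE, adjusted p = 0.037). Without WSB/EiJ replicate 3 that was 0.21 (adjusted p = 0.27), and without replicate 4 0.29 (adjusted p = 0.13). It was highest in PWK/PhJ replicate 1 and lowest in a pair of NZO/HlLtJ libraries. Robo4, a guidance receptor of endothelium, stood at 4.99, 5.34 and 9.80 CPM in C57BL/6J, 2.30, 2.98 and 5.44 in 129S1/SvImJ, 3.01, 4.16 and 5.96 in A/J, 4.22, 4.62 and 1.69 in DBA/2J, 2.63, 6.69 and 2.54 in NOD/ShiLtJ, 1.40, 1.42 and 3.08 in NZO/HlLtJ, 3.84, 5.32 and 3.91 in WSB/EiJ, 2.54, 6.07 and 5.83 in CAST/EiJ and 21.1, 6.32 and 6.27 in PWK/PhJ. Its CAST/EiJ replicates 4 and 5 were close to the lower PWK/PhJ libraries, and beyond the shared level (adjusted p = 0.0077) it was higher in CAST/EiJ by 0.54 ± 0.12 (SE, adjusted p = 8.6e-04). With Kupffer and stellate levels this was 0.49 (adjusted p = 0.12). In A/J Robo4 was lower, at -0.36 ± 0.12 (SE, adjusted p = 0.036), a call lost without any 1 of the A/J libraries, at -0.36 (adjusted p = 0.097), -0.38 (adjusted p = 0.084) and -0.33 (adjusted p = 0.14) without replicates 1, 2 and 3, and without NOD/ShiLtJ replicate 2 (adjusted p = 0.054).

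**Figure D3:**
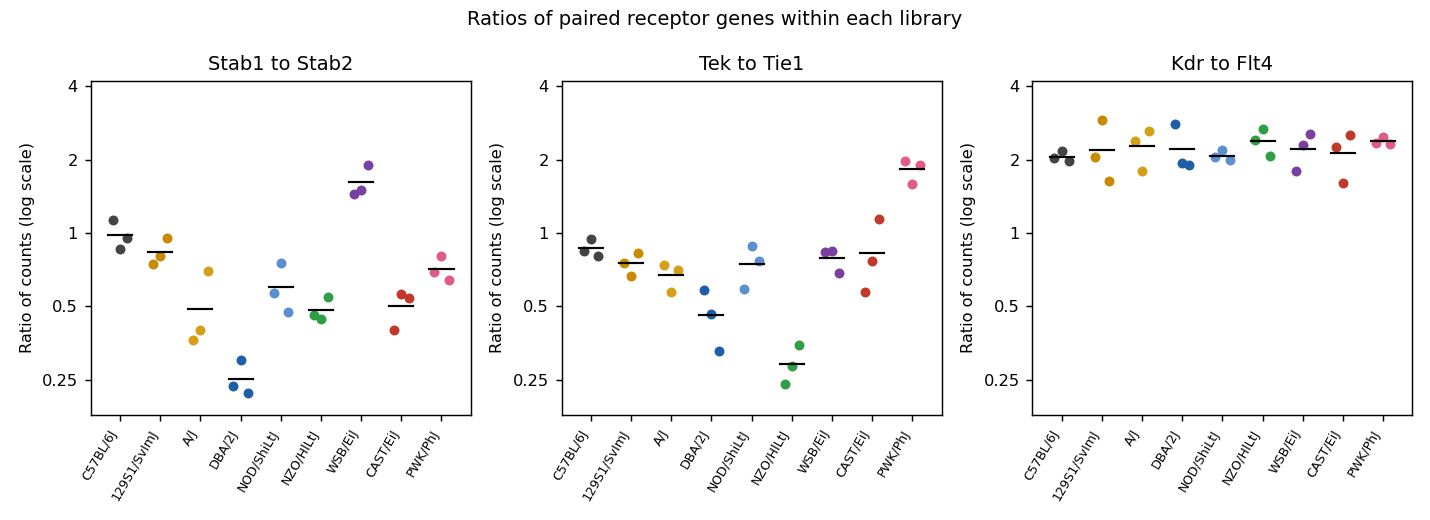
Ratio of counts of related receptor genes (y axis, log scale) in each library by strain (x axis); points are libraries and bars are strain means. DBA/2J and WSB/EiJ lie at the ends for Stab1 to Stab2, NZO/HlLtJ and PWK/PhJ for Tek to Tie1, and all libraries lie between 1.60 and 2.91 for Kdr to Flt4.

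Of the junction and surface genes, Cdh5 and Eng departed. Cdh5 stood at 15.2, 15.3 and 19.5 CPM in C57BL/6J, 5.06, 5.95 and 9.85 in 129S1/SvImJ, 9.59, 11.6 and 13.0 in A/J, 8.57, 11.1 and 3.79 in DBA/2J, 7.27, 12.2 and 7.21 in NOD/ShiLtJ, 3.98, 4.201 and 4.62 in NZO/HlLtJ, 8.89, 12.2 and 6.26 in WSB/EiJ, 3.07, 7.22 and 7.22 in CAST/EiJ and 58.9, 18.1 and 20.9 in PWK/PhJ. PWK/PhJ replicate 2 lay within the range of the C57BL/6J libraries and replicate 3 just above it, and NZO/HlLtJ and CAST/EiJ replicate 1 were low. Cdh5 departed (adjusted p = 0.0014) and was higher in PWK/PhJ by 0.70 ± 0.15 (SE, adjusted p = 8.2e-04), and by 0.66 ± 0.15 (SE, adjusted p = 0.0014) without PWK/PhJ replicate 1. It was lower in CAST/EiJ, at -0.59 ± 0.13 (SE, adjusted p = 7.8e-04), which fell short of the threshold with Kupffer and stellate levels as further covariates, at -0.31 (adjusted p = 0.29). In C57BL/6J Cdh5 was higher by 0.41 ± 0.12 (SE, adjusted p = 0.025), which became 0.28 (adjusted p = 0.24) without C57BL/6J replicate 1, 0.44 (adjusted p = 0.056) without replicate 2 and 0.15 (adjusted p = 0.71) with Kupffer and stellate levels. Eng, a co-receptor for BMP and TGF-beta ligands, stood at 29.7, 32.2 and 49.6 CPM in C57BL/6J, 16.8, 18.7 and 30.1 in 129S1/SvImJ, 18.6, 29.4 and 37.4 in A/J, 25.5, 28.2 and 9.76 in DBA/2J, 20.8, 34.8 and 16.2 in NOD/ShiLtJ, 10.7, 12.4 and 17.6 in NZO/HlLtJ, 30.2, 34.4 and 26.98 in WSB/EiJ, 13.2, 38.8 and 30.5 in CAST/EiJ and 151, 49.4 and 49.1 in PWK/PhJ. All PWK/PhJ libraries were high and those of NZO/HlLtJ were low, and DBA/2J lay wholly below C57BL/6J. Eng departed (adjusted p = 0.0030) with small single-strain values. In A/J it was at -0.28 ± 0.09 (SE, adjusted p = 0.023), which became -0.21 (adjusted p = 0.16) without A/J replicate 1 and -0.26 (adjusted p = 0.11) without replicate 3. In CAST/EiJ it was at 0.24 ± 0.08 (SE, adjusted p = 0.026), which became 0.25 (adjusted p = 0.060) without CAST/EiJ replicate 1 and 0.13 (adjusted p = 0.39) without replicate 4. In PWK/PhJ it was at 0.29 ± 0.11 (SE, adjusted p = 0.046), a call lost in 20 of the 27 fits that left out a library. The adhesion genes Pecam1 and Esam, the tight junction gene Cldn5, the sialomucin gene Emcn and the adhesion receptor gene Adgrl4 did not depart. Their slopes ran from 0.94 ± 0.16 for Cldn5 to 1.14 ± 0.17 for Emcn. Pecam1, the antigen CD31 used to mark endothelium, ranged from 3.08 ± 1.202 CPM (SD, n = 3) in NZO/HlLtJ to 15.2 ± 9.10 CPM (SD, n = 3) in PWK/PhJ (9.97 CPM without replicate 1), with a departure test of adjusted p = 0.22.

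Of the secreted proteins, Egfl7 and Dnase1l3 departed most. Egfl7 stood at 6.70, 7.60 and 10.6 CPM in C57BL/6J, 2.79, 3.35 and 4.83 in 129S1/SvImJ, 7.22, 10.6 and 13.3 in A/J, 7.98, 9.59 and 5.26 in DBA/2J, 4.48, 7.62 and 3.03 in NOD/ShiLtJ, 2.24, 2.13 and 3.11 in NZO/HlLtJ, 7.29, 8.59 and 7.18 in WSB/EiJ, 1.48, 4.56 and 5.93 in CAST/EiJ and 18.9, 4.95 and 7.83 in PWK/PhJ. A/J and DBA/2J were high for their shared level, and CAST/EiJ replicate 1 was lowest of all libraries. Egfl7 departed (adjusted p = 5.5e-06) and was higher in DBA/2J by 0.93 ± 0.15 (SE, adjusted p = 5.6e-05) and in A/J by 0.66 ± 0.14 (SE, adjusted p = 9.1e-04). It was lower in CAST/EiJ, at -0.51 ± 0.15 (SE, adjusted p = 0.012), which became -0.34 (adjusted p = 0.11) without CAST/EiJ replicate 1 and -0.48 (adjusted p = 0.071) without replicate 4. With Kupffer and stellate levels the CAST/EiJ value was -0.86 (adjusted p = 0.033). In WSB/EiJ Egfl7 was higher by 0.41 ± 0.14 (SE, adjusted p = 0.030), a call lost without any 1 of the WSB/EiJ libraries, at 0.44 (adjusted p = 0.068), 0.43 (adjusted p = 0.076) and 0.35 (adjusted p = 0.16) without replicates 2, 3 and 4. Counts of Egfl7 per count of Pecam1, an endothelial gene that did not depart, were 1.37, 1.74 and 3.17 in DBA/2J and 2.03, 1.55 and 1.53 in A/J, above every library of the other strains, which reached 1.29. Exons of Agpat2 lie on the opposite strand of Egfl7, and this overlap was not separated.

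Dnase1l3, a secreted nuclease, stood at 28.8, 37.7 and 50.3 CPM in C57BL/6J, 14.0, 20.1 and 28.3 in 129S1/SvImJ, 22.3, 29.0 and 40.3 in A/J, 31.0, 27.2 and 9.15 in DBA/2J, 24.0, 45.7 and 30.1 in NOD/ShiLtJ, 8.77, 12.8 and 16.7 in NZO/HlLtJ, 22.8, 31.2 and 23.2 in WSB/EiJ, 6.89, 17.005 and 17.7 in CAST/EiJ and 134, 47.2 and 46.9 in PWK/PhJ. In CAST/EiJ it was near the NZO/HlLtJ values although the shared level of CAST/EiJ replicates 4 and 5 was near the mean. Dnase1l3 departed (adjusted p = 2.7e-05) and was lower in CAST/EiJ, at -0.77 ± 0.10 (SE, adjusted p = 1.9e-06), or 1.70-fold, and higher in NOD/ShiLtJ by 0.45 ± 0.09 (SE, adjusted p = 6.7e-04). Oit3, a protein with a zona pellucida domain, stood at 14.8, 15.9 and 23.1 CPM in C57BL/6J, 5.37, 7.44 and 12.9 in 129S1/SvImJ, 6.81, 11.5 and 16.1 in A/J, 9.88, 10.2 and 3.12 in DBA/2J, 8.60, 17.2 and 8.12 in NOD/ShiLtJ, 3.47, 5.01 and 8.72 in NZO/HlLtJ, 11.9, 13.9 and 13.2 in WSB/EiJ, 4.29, 11.3 and 13.5 in CAST/EiJ and 70.2, 21.2 and 25.5 in PWK/PhJ. Its extremes were PWK/PhJ replicate 1 and, at the low end, DBA/2J replicate 4. Oit3 departed (adjusted p = 0.012), but this was lost in the fit with Kupffer and stellate levels (adjusted p = 0.12). Its values in that fit were -0.43 (adjusted p = 0.16) in A/J and 0.39 (adjusted p = 0.090) in PWK/PhJ, close to those without these covariates. In A/J Oit3 was lower, at -0.41 ± 0.11 (SE, adjusted p = 0.0086), which became -0.32 (adjusted p = 0.092) without A/J replicate 1. In PWK/PhJ it was higher by 0.37 ± 0.13 (SE, adjusted p = 0.035), a call lost in 5 of the 27 fits that left out a library, with 0.37 (adjusted p = 0.12) without PWK/PhJ replicate 2.

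**Figure D4:**
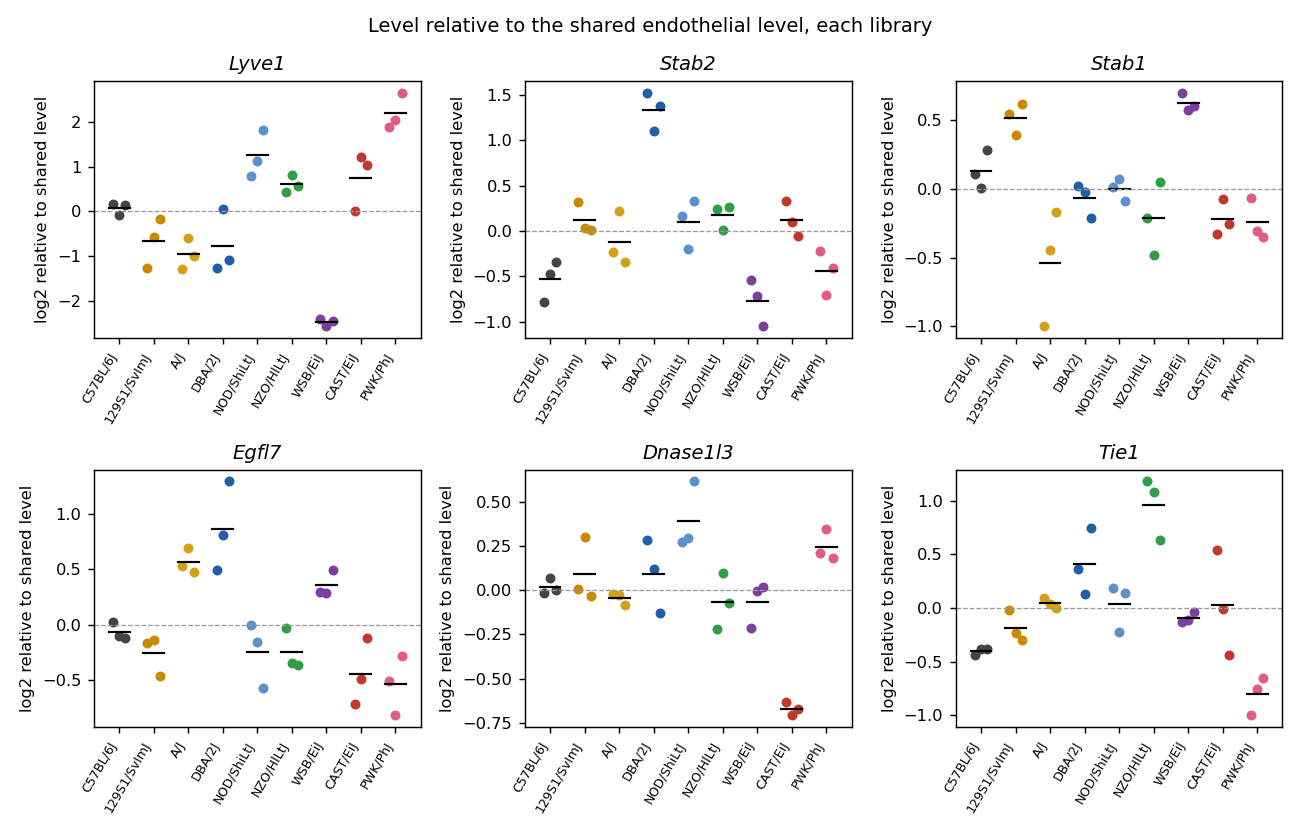
Level of Lyve1, Stab2, Stab1, Egfl7, Dnase1l3 and Tie1 relative to the shared endothelial level (y axis, log2 difference, centred at 0) in each library by strain (x axis); points are libraries and bars are strain means. The shared level was taken off with a slope of 1, not the fitted slope, so values of Tie1, with a fitted slope of 0.69, differ from those tested. Lyve1 lies highest in PWK/PhJ and lowest in WSB/EiJ, Stab2 highest in DBA/2J, and Tie1 highest in NZO/HlLtJ.

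Of the ligands that instruct hepatocytes, Bmp2 departed, and Wnt2 and Rspo3 were not called. Bmp2, which induces the iron hormone hepcidin, had a slope of 1.13 ± 0.11 and ran from 3.88 ± 2.16 CPM (SD, n = 3) in NZO/HlLtJ to 14.0 ± 8.98 CPM (SD, n = 3) in PWK/PhJ. Without PWK/PhJ replicate 1 that mean was 8.82 CPM, below 10.6 ± 3.97 CPM (SD, n = 3) in C57BL/6J, and the PWK/PhJ difference before the covariate went from 1.16 ± 0.35 (SE, adjusted p = 0.011) to 0.50 ± 0.41 (SE, adjusted p = 0.40). Its departure (adjusted p = 0.034) was lost without any of 129S1/SvImJ replicates 2 and 3, DBA/2J replicate 4 and CAST/EiJ replicates 1 and 5 (adjusted p = 0.057 to 0.11). Beyond the shared level it was higher in 129S1/SvImJ by 0.56 ± 0.17 (SE, adjusted p = 0.022), which became 0.52 (adjusted p = 0.096) without replicate 2, 0.50 (adjusted p = 0.19) without replicate 3 and 0.41 (adjusted p = 0.16) with Kupffer and stellate levels. Wnt2 ran from 0.508 ± 0.0460 CPM (SD, n = 3) in NZO/HlLtJ to 3.06 ± 1.41 CPM (SD, n = 3) in PWK/PhJ, with a slope of 0.89 ± 0.22 and no departure (adjusted p = 0.58). Rspo3, which amplifies WNT signals around the central vein, averaged 0.144 ± 0.0294 CPM (SD, n = 3) in NZO/HlLtJ and 1.34 ± 0.363 CPM (SD, n = 3) in PWK/PhJ. Its lowest library held 2 counts and its highest 44. Its departure was not called (adjusted p = 0.18), and was called without NOD/ShiLtJ replicate 3 (adjusted p = 0.044). F8 ran from 3.20 ± 0.356 CPM (SD, n = 3) in NZO/HlLtJ to 13.9 ± 10.2 CPM (SD, n = 3) in PWK/PhJ (8.04 CPM without replicate 1), and without PWK/PhJ replicate 1 its PWK/PhJ difference before the covariate went from 1.15 ± 0.28 (SE, adjusted p = 0.0024) to 0.36 ± 0.30 (SE, adjusted p = 0.41). Vwf, the carrier of factor VIII in blood, held 9 to 29 counts a library and was called in neither test.

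Among the remaining genes, Ehd3, an endocytic recycling protein, stood at 24.5, 28.9 and 47.2 CPM in C57BL/6J, 9.68, 14.8 and 30.0 in 129S1/SvImJ, 28.0, 25.9 and 48.1 in A/J, 22.6, 17.8 and 7.43 in DBA/2J, 15.0, 30.6 and 17.04 in NOD/ShiLtJ, 9.81, 11.6 and 17.3 in NZO/HlLtJ, 21.1, 30.5 and 19.4 in WSB/EiJ, 9.99, 27.03 and 25.0 in CAST/EiJ and 94.8, 36.8 and 31.5 in PWK/PhJ. Levels peaked in PWK/PhJ replicate 1 and were lowest in DBA/2J replicate 4, and the slope was 1.05 ± 0.07, with no departure (adjusted p = 0.11). Its 1 single-strain call was in A/J, at 0.32 ± 0.11 (SE, adjusted p = 0.037), and the call was lost in 5 of the 27 fits that left out a library and with Kupffer and stellate levels (adjusted p = 1.00), with 0.17 (adjusted p = 0.39) without A/J replicate 1. Aqp1 departed (adjusted p = 0.010), with strain means from 21.1 ± 4.69 CPM (SD, n = 3) in NZO/HlLtJ to 88.9 ± 60.1 CPM (SD, n = 3) in PWK/PhJ, where the mean without replicate 1 was 54.2 CPM, below 63.5 ± 21.7 CPM (SD, n = 3) in C57BL/6J. In DBA/2J Aqp1 was lower, at -0.37 ± 0.11 (SE, adjusted p = 0.020), which became -0.41 (adjusted p = 0.053) without DBA/2J replicate 2 and -0.31 (adjusted p = 0.17) without replicate 3. In WSB/EiJ it was higher by 0.35 ± 0.10 (SE, adjusted p = 0.0098), which became 0.31 (adjusted p = 0.072) without WSB/EiJ replicate 3 and 0.22 (adjusted p = 0.20) without replicate 4. Gpr182, a receptor of sinusoidal cells, departed (adjusted p = 0.010), and its smallest single-strain adjusted p was 0.073, in DBA/2J. Ramp2, the partner of the adrenomedullin receptor, did not depart (adjusted p = 0.064). Maf, a transcription factor of sinusoidal cells, departed (adjusted p = 0.0098), with 10.1 ± 1.51 CPM (SD, n = 3) in NOD/ShiLtJ against 18.2 ± 3.04 CPM (SD, n = 3) in CAST/EiJ. Its single-strain value in NOD/ShiLtJ was -0.61 ± 0.16 (SE, adjusted p = 0.0088), and -0.53 (adjusted p = 0.073) without NOD/ShiLtJ replicate 1 or -0.57 (adjusted p = 0.072) without replicate 2. The CAST/EiJ value of 0.46 ± 0.15 (SE, adjusted p = 0.017) became 0.34 (adjusted p = 0.14) without CAST/EiJ replicate 1 and 0.41 (adjusted p = 0.12) without replicate 4.

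**Figure D5:**
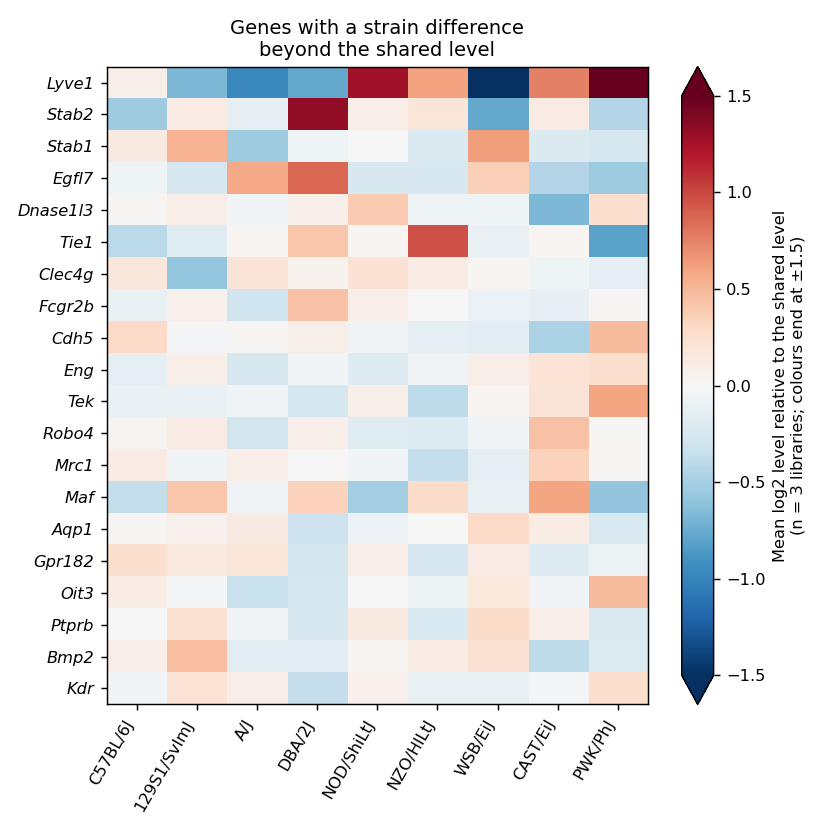
Mean log2 level of each gene that departed, relative to the shared endothelial level (colour, red higher and blue lower, ending at ±1.5; n = 3 libraries), by strain (x axis), with genes ordered by the F of the departure test (y axis). The shared level was taken off with a slope of 1, not the fitted slope. Colours of genes of low slope, such as Maf (0.34) and Tie1 (0.69), therefore differ from the tested values. The strongest colours are Lyve1 in PWK/PhJ and WSB/EiJ and Stab2 in DBA/2J.

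Further vascular endothelial genes were described in the same way, with strain means as mean ± SD (n = 3). Among 49 such genes, 42 of 44 tested genes differed between strains and 30 departed, with a median slope of 0.75; this and the counts of the lists that follow stand against the 74.2% of all genes that differed and 72.1% that departed. In PWK/PhJ 32 of them were higher and 1 lower, against 19.4% and 14.8% of all genes, and in NZO/HlLtJ 2 were higher and 22 lower, against 14.8% and 12.9%. Cav1, the coat protein of caveolae, ran from 0.172 ± 0.0512 (NZO/HlLtJ) to 31.0 ± 18.2 CPM (PWK/PhJ), with a PWK/PhJ difference of 6.36 on the log2 scale (adjusted p = 2.0e-15). Tm4sf1, a membrane protein of endothelium, ran from 0.162 ± 0.136 (CAST/EiJ) to 13.4 ± 5.03 CPM (PWK/PhJ). Cd36, a fatty acid carrier that hepatocytes are also known to make, ran from 6.95 ± 0.825 (NOD/ShiLtJ) to 235 ± 72.1 CPM (WSB/EiJ). Among 18 genes of central and portal vein endothelium, 4 of them already described, 14 of 15 tested genes differed between strains and 9 departed, with a median slope of 0.65. Of these, the cytokine gene Il33 ran from 0.788 ± 0.224 (C57BL/6J) to 15.1 ± 4.33 CPM (PWK/PhJ) with a slope of -0.02, and the matrix gene Ltbp4 ran from 2.39 ± 0.664 (NZO/HlLtJ) to 31.0 ± 21.2 CPM (PWK/PhJ). The cadherin gene Cdh13 had no count in any NOD/ShiLtJ library and averaged 0.889 ± 0.181 CPM in C57BL/6J.

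Genes that these signals act on, or that send signals to endothelium, had median slopes below those of the endothelial lists. The counts called in the pericentral and BMP lists lay near the shares of all genes (74.2% and 72.1%). Of 18 pericentral WNT target genes, 14 of 18 tested genes differed between strains and 14 departed, with a median slope of -0.02. Oat, an aminotransferase of pericentral hepatocytes, ran from 149.9 ± 20.8 (WSB/EiJ) to 1189 ± 11.1 CPM (CAST/EiJ). Rhbg, an ammonium transporter, ran from 2.55 ± 0.561 (CAST/EiJ) to 12.7 ± 1.75 CPM (DBA/2J), and Notum, a WNT inhibitor, from 22.9 ± 2.02 (NZO/HlLtJ) to 58.7 ± 12.4 CPM (A/J). Of 24 BMP and hepcidin genes, 17 of 23 tested genes differed between strains and 16 departed, with a median slope of 0.15. Hamp, the main hepcidin gene, ran from 116 ± 19.5 (NZO/HlLtJ) to 1184 ± 229 CPM (NOD/ShiLtJ), and its near copy Hamp2 from 148 ± 104 (CAST/EiJ) to 4353 ± 943 CPM (DBA/2J); reads of these similar genes may be split by the counting. Bmper, a BMP-binding protein, ran from 0.580 ± 0.526 (A/J) to 16.2 ± 3.78 CPM (CAST/EiJ). Of 12 VEGF and angiopoietin ligand genes, 9 of 11 tested genes differed between strains and 6 departed, with a median slope of 0.37. Hgf, made by stellate cells, ran from 0.535 ± 0.130 (NZO/HlLtJ) to 4.01 ± 2.12 CPM (PWK/PhJ) with a slope of 0.83. Vegfb ran from 3.69 ± 0.522 (WSB/EiJ) to 8.02 ± 1.15 CPM (NOD/ShiLtJ), and Angpt1, the ligand of TEK, from 0.0217 ± 0.0376 (129S1/SvImJ) to 2.99 ± 0.765 CPM (WSB/EiJ). Of 7 genes that carry or clear factor VIII, 7 of 7 tested genes differed between strains and 7 departed, with a median slope of 0.24. The cargo receptor subunits Lman1 and Mcfd2 were highest in WSB/EiJ, at 462 and 357 CPM, as was Asgr2, a subunit of the asialoglycoprotein receptor, at 526.

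Outside the 34 genes, protein-coding genes with a mean of at least 1 CPM were ranked by their correlation with the shared level after strain means were removed from both. Of 10700 candidates, the 10 highest over the 27 libraries were Npr1 (r = 0.975), Ets1 (r = 0.972), Cd300lg (r = 0.971), Gpihbp1 (r = 0.968), Tinagl1 (r = 0.963), Plxnd1 (r = 0.959), Fyn (r = 0.958), Sparc (r = 0.958), Plxnc1 (r = 0.955) and Pcdh12 (r = 0.954). These libraries share depth and cell mixture, so the values describe likeness only. Npr1 is a natriuretic peptide receptor, Ets1 an ETS transcription factor, Gpihbp1 the capillary anchor of lipoprotein lipase, and Plxnd1 a semaphorin receptor. All 10 had slopes between 0.93 and 1.09. Gpihbp1 (adjusted p = 8.5e-06) and the matrix gene Sparc (adjusted p = 9.4e-07) had the clearest strain differences beyond the shared level, while Plxnc1 had none called (adjusted p = 0.61).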

How the data were processed

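Polyadenylated RNA of 27 hepatocyte samples was sequenced after a TruSeq kit v2 preparation that does not mark strand, per the labels' protocols. The authors deposited 1 table of expected counts (estimates that need not be whole) per Ensembl gene, made before deposit by a counter that is not named. Of its values, 14.71% were not whole, and values were rounded, which changed no library total by more than 0.000261%. The submitters' processing notes name FastQC 0.11.5, DESeq2 and the builds GRCm38 and mm10, with no role. The aligner, the counter, and whether each strain was aligned to its own genome are not given in the sources used here, so genes whose sequence differs between strains could be counted unequally, which was not tested. Symbols came from GENCODE M21 (42462 of 43346 IDs had one).

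Counts were scaled by TMM (factors 0.722 to 1.23), filtered with filterByExpr by strain and fitted with edgeR 4.0.16 (limma 3.58.1, R 4.3.3) using the quasi-likelihood test, with Benjamini-Hochberg adjustment over all 14482 genes; all adjusted p-values and standard errors are from these fits. Strain effects were tested without and with the shared level (log2 CPM, prior count 2) as a covariate, and the shared level left out the core gene being tested. CPM values use the TMM-scaled library size. Scripts were tested on simulated data. Genes given in full were those that departed, up to 12 by F, and the 6 core genes of highest mean CPM; each further list gave the 3 called genes of largest strain F. Ratios and the other genes named were chosen after values were seen. The genes and lists were chosen with earlier results of these data known. Alternatives were other scaling, filters and rounding, DESeq2 1.42.0, other forms of the shared level, a replicate block, and each library left out.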

Additional observations from a re-analysis of the deposited data

How the results depend on the processing

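The count of endothelial genes that differed between strains was 30, 30 to 31 under other settings and 27 to 30 with libraries left out. The count that departed was 20, 22 with DESeq2, 18 to 20 under other settings in edgeR but 1, 19 to 21 with libraries left out, and 5 in that 1, with the shared level as an offset of slope 1, a fit that called 83.9% of all genes against 72.1%, with a median biological coefficient of variation of 0.450 against 0.176; the cause was not tested. Stab2, Lyve1, Tie1 and Egfl7 departed under all 12 alternatives and all 27 leave-outs. Single-strain counts in edgeR moved by over 1.5 times as follows. Before the covariate, without a filter on low counts they were 5 in C57BL/6J, 4 in 129S1/SvImJ, 4 in DBA/2J, 2 in WSB/EiJ, 2 in CAST/EiJ. Beyond the shared level, the offset gave 0 (0 at an unadjusted p under 0.05) in C57BL/6J, 0 (2 at an unadjusted p under 0.05) in 129S1/SvImJ, 0 (2 at an unadjusted p under 0.05) in A/J, 2 in DBA/2J, 1 in NOD/ShiLtJ, 1 in WSB/EiJ, 1 in CAST/EiJ. Kupffer and stellate covariates gave 0 (2 at an unadjusted p under 0.05) in C57BL/6J, 2 in 129S1/SvImJ, 3 in A/J. Leaving the 4 most abundant core genes out of the shared level gave 1 in C57BL/6J, and no filter gave 5 in A/J, 1 in NZO/HlLtJ. DESeq2 was run for the overall tests only. Leaving out each library gave, before the covariate, 0 to 7 in C57BL/6J, 0 to 3 in 129S1/SvImJ, 0 to 1 in A/J, 0 to 1 in DBA/2J, 0 to 2 in NOD/ShiLtJ, 3 to 28 in NZO/HlLtJ, 1 to 1 in WSB/EiJ, 1 to 3 in CAST/EiJ, 13 to 32 in PWK/PhJ. Beyond the shared level it gave 0 to 2 in C57BL/6J, 2 to 5 in 129S1/SvImJ, 4 to 9 in A/J, 4 to 8 in DBA/2J, 2 to 4 in NOD/ShiLtJ, 1 to 3 in NZO/HlLtJ, 3 to 6 in WSB/EiJ, 4 to 9 in CAST/EiJ, 4 to 10 in PWK/PhJ.

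Replicate numbers in the labels did not pair libraries: same-numbered libraries of different strains had a median correlation of 0.0232 between their deviations (-0.293 to 0.275, 76 pairs), and 7 of 26 libraries correlated best with their own number. With the replicate block, single-strain counts before the covariate were 0 (3 at an unadjusted p under 0.05) in 129S1/SvImJ, 0 (6 at an unadjusted p under 0.05) in DBA/2J, 1 in NOD/ShiLtJ, 0 (3 at an unadjusted p under 0.05) in CAST/EiJ, and beyond the shared level 1 in NZO/HlLtJ; 18 genes departed.

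No called difference of a single gene changed sign under any alternative run. Uncalled strain summaries did: without 1 library of the strain, the mean shared level went from -0.43 to 0.01 in DBA/2J (replicate 4), -0.29 to 0.17 in CAST/EiJ (replicate 1), -0.04 to 0.12 in NOD/ShiLtJ (replicate 3) and 0.10 to -0.02 in WSB/EiJ (replicate 3). The median endothelial difference went from 0.23 to -0.08 in A/J without its replicate 3 and from -0.23 to 0.10 in CAST/EiJ without its replicate 1, and those of NOD/ShiLtJ and WSB/EiJ also crossed 0. With 3 libraries per strain and single libraries as far apart as in PWK/PhJ, DBA/2J and CAST/EiJ, calls for single strains rest on few libraries. Whether low counts set the missed calls of Vwf and Rspo3 was not tested.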

Other observations

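The markers of other cells had slopes of their own on the endothelial level. For stellate cell and matrix markers, 11 of 17 tested genes differed between strains and 10 departed, with a median slope of 0.83. The matrix genes Lum, Reln and Col3a1 had the largest strain differences, Lum from 0.0101 ± 0.0174 (CAST/EiJ) to 2.19 ± 0.838 CPM (A/J), Reln from 6.96 ± 2.15 (CAST/EiJ) to 28.1 ± 4.11 CPM (DBA/2J) and Col3a1 from 0.492 ± 0.192 (129S1/SvImJ) to 2.96 ± 1.13 CPM (DBA/2J). For Kupffer cell markers, 18 of 18 tested genes differed between strains and 16 departed, with a median slope of 0.62. Clec4f, a lectin of Kupffer cells, ran from 11.7 ± 3.79 (NZO/HlLtJ) to 82.5 ± 53.4 CPM (PWK/PhJ), the iron exporter gene Slc40a1 from 113 ± 23.6 (NZO/HlLtJ) to 354 ± 90.0 CPM (WSB/EiJ) and the folate receptor gene Folr2 from 0.0582 ± 0.0294 (WSB/EiJ) to 7.63 ± 1.43 CPM (C57BL/6J). For hepatocyte markers, 9 of 12 tested genes differed between strains and 10 departed, with a median slope of 0.13, led by Serpina1b, Alb and Ttr, each highest in A/J. For cholangiocyte markers, 3 of 4 tested genes differed between strains and 4 departed, with a median slope of -0.28, led by Spp1, Pkhd1 and Sox9. For platelet markers, 3 of 5 tested genes differed between strains and 3 departed, with a median slope of 0.58, led by Gp5, Ppbp and Itgb3. For lymphocyte markers, 1 of 2 tested genes, Ptprc, differed between strains.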
